A study of Homo sapiens with 6 samples.

Results

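The genes described here are 10 genes of pyrimidine synthesis and salvage in DU145, a human prostate cancer cell line derived from a brain metastasis. They are UPP1, TYMP, CDA, UCK1, UCK2, TK1, CAD, DHODH, UMPS and CTPS1. They were taken by gene symbol from the 23062 identifiers listed for each library, and all 10 were found. UPP1 was chosen by its higher expression in treated than in control cells in these same libraries, and the other genes were added for their place in the pathway with those values known. The differences between the groups in the 10 genes are therefore given as a description. No p-value is given for any of them, and the count of those past the threshold of the comparison over all genes is stated with nothing read from it. The control group is 3 libraries from wild-type DU145 cells kept in medium for 48 h, and the treated group is 3 libraries from the same cells given taraxasterol (TAX), a plant triterpene, for 48 h at its IC50 in these cells, 56 µM by the study's methods. TAX was dissolved in DMSO, and the labels describe the control only as medium, so that TAX and its solvent cannot be told apart. Nothing in the labels says whether the 3 libraries of a group came from separate cultures, and p-values then measure only the spread between these samples.

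Pyrimidine nucleotides, the building blocks of RNA and DNA that carry uracil, cytosine or thymine, are made along a pair of routes. In de novo synthesis the trifunctional protein CAD, the mitochondrial enzyme DHODH and the bifunctional enzyme UMPS build UMP from small precursors, and CTPS1 makes CTP from UTP. In salvage, UCK1 and UCK2 phosphorylate uridine and cytidine, TK1 phosphorylates thymidine, and CDA deaminates cytidine to uridine. UPP1 and TYMP work in the opposite direction as a rule, since they split uridine and thymidine into the free base and a sugar phosphate.

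The regions upstream of 3 genes are printed first, because UPP1, TYMP and CDA showed the largest differences between the groups among the 10 genes. Each run is the 250 bases before a RefSeq transcription start on GRCh38.p14, written 5′ to 3′ on the strand of the gene. Capitals mark a match to 1 of 6 motifs on either strand, which are the GC box GGGCGG, the CCAAT box CCAAT, the AP-1 site TGACTCA, the E-box CACGTG, the cyclic AMP response element TGACGTCA and the TATA box TATAAA. UPP1 is shown at both of its separate start regions (chr7:48088454-48088703 and chr7:48089004-48089253, plus strand), TYMP at chr22:50530013-50530262 on the minus strand and CDA at chr1:20588847-20589096 on the plus strand.
UPP1, upstream start: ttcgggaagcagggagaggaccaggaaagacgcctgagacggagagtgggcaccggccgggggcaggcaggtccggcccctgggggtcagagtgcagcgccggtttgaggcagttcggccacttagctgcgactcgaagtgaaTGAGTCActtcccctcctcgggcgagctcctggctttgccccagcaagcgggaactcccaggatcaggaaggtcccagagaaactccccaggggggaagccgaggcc
UPP1, downstream start: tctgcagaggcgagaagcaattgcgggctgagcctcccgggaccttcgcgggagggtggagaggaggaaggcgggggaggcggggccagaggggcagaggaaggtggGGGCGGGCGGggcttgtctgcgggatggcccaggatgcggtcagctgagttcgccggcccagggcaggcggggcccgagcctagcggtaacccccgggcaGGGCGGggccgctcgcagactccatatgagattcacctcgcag
TYMP: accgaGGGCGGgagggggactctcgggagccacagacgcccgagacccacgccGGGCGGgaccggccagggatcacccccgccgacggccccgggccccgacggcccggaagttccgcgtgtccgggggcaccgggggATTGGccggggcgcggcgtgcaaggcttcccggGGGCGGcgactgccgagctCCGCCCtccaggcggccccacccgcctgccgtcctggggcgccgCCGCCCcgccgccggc
CDA: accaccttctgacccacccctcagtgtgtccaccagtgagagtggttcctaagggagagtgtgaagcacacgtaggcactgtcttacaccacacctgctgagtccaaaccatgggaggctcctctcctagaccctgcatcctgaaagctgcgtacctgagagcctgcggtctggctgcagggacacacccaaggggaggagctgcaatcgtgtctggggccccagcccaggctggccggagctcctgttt

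The upstream UPP1 window held an AP-1 site 107 bases before the start and no GC box, while the downstream window held 3 GC boxes, of which the first and the second share bases. The AP-1 letters occur in 4.20% and the GC box in 42.6% of all 35116 RefSeq windows of this length. The TYMP window held 5 GC boxes and a CCAAT box, which occurs in 32.0% of all windows. The CDA window matched none of the 6 motifs. Across the 15 windows listed for the 10 genes, which partly overlap, 10 held a GC box, 6 a CCAAT box and 1 held an E-box, at DHODH, against 6.34% of all windows with an E-box. The CRE letters, found in 1.65% of all windows, occurred once, 47 bases before the UMPS start, and the TATA letters, found in 10.7% of all windows, once, at TK1. The deposited values are per gene, so the start in use in DU145 cells is not known, and a match is a description of the letters only.

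The 6 libraries held 1 value per gene, taken as FPKM (fragments scaled to the length of the gene and the size of the library), a scale on which genes of different length can be compared. Summed FPKM ranged from 322483 in control replicate 3 to 363724 in control replicate 1, and 3997 to 4798 identifiers per library were listed at 0. Read totals were not given, so the depth is unknown and no counting error can be stated. Pearson's r of log2(FPKM + 1) across identifiers, which are not independent replicates, was 0.996 to 0.997 between libraries of a group. The epithelial markers KRT8, KRT18, KRT19, EPCAM and CDH1 ranged from 40.7 to 173 FPKM. The luminal prostate markers KLK3, KLK2 and TMPRSS2 were between 0 and 0.0191 FPKM in all libraries. Of the markers of other cell types, PTPRC, PECAM1, COL1A2 and DCN were between 0 and 0.0271 FPKM. COL1A1 was 1.89 to 2.08 FPKM in control and 1.42 to 1.48 FPKM in TAX-treated libraries, and CD68, which also marks lysosomes, was 20.01 to 26.7 and 32.5 to 33.4 FPKM. The part of these markers in the results was not tested.

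In control cells, whose values were also known when the genes were chosen and are described without a test, the 10 genes spanned a 30.5-fold range of FPKM. UPP1 was the highest with 79.3 ± 17.0 FPKM (SD, n = 3) and ranked 650 of the 12359 tested genes. TK1 had 66.4 ± 2.81 FPKM (SD, n = 3) and CDA 50.7 ± 7.14 FPKM (SD, n = 3), so that the 3 leading genes all belong to salvage and nucleoside cleavage. CTPS1 at 24.0 ± 2.205, UCK2 at 20.8 ± 2.03 and TYMP at 17.9 ± 2.68 FPKM (SD, n = 3 each) followed. CAD at 14.2 ± 1.93 FPKM and UCK1 at 14.2 ± 1.22 FPKM (SD, n = 3 each) were level, and the de novo enzymes UMPS and DHODH were the lowest, with 5.94 ± 0.371 FPKM and 2.60 ± 0.140 FPKM (SD, n = 3 each). The control values of UPP1 and TK1 overlapped, as did those of CTPS1 and UCK2, UCK2 and TYMP, and CAD and UCK1, so the order within these pairs is not beyond the spread between libraries. The other neighbours did not overlap, but the lowest TYMP value, 15.75 FPKM, lay barely above the highest CAD value, 15.73 FPKM.

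**Figure D1:**
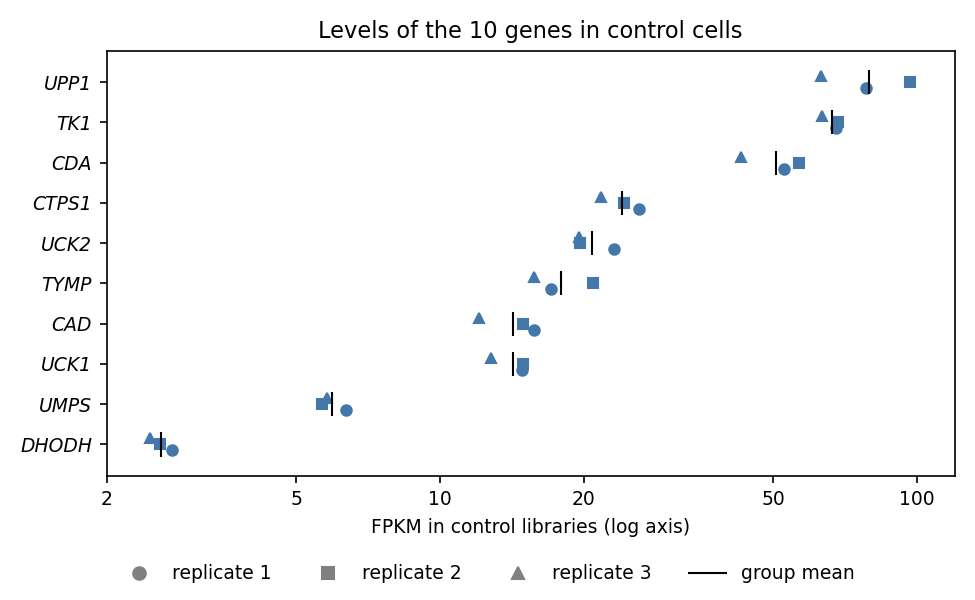
FPKM of the 10 genes in the 3 control libraries on a log axis, with 1 symbol per replicate and a line at the group mean, ordered by mean. UPP1, TK1 and CDA lie between 42.8 and 96.8 FPKM, and UMPS and DHODH lie below 6.37 FPKM.

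The spread between control libraries was unequal among the genes. The coefficient of variation was 21.5% for UPP1, 14.9% for TYMP, 14.1% for CDA and 13.5% for CAD, and 4.22% for TK1. The median over the 10 genes was 9.47%, beside 9.83% over all tested genes. In TAX-treated cells the medians were 5.38% and 6.001%. Control replicate 3 gave the lowest of the 3 control values for 9 of the 10 genes, all except UMPS, and for 72.3% of all tested genes. Where leaving out this library moved the difference of a gene by over 1.5 times or turned its sign, the value without it is given below.

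The pyrimidine phosphorylases UPP1 and TYMP differed between the groups in opposite directions. UPP1 (chromosome 7, 48088628 to 48108733, plus strand, GENCODE 29 on GRCh38), which splits uridine into uracil and ribose phosphate, was at 78.1, 96.8 and 62.8 FPKM in the control libraries (replicates 1, 2 and 3, the order used throughout), against 154, 124 and 138 FPKM with TAX. Every TAX value lay above every control value, and the means were 79.3 ± 17.0 and 139 ± 15.2 FPKM (SD, n = 3 each), 1.75 times as high after TAX treatment. The log2 fold change of UPP1 on the log2(FPKM + 1) scale was 0.81 (standard error 0.14). It was 0.97 without control replicate 2, the highest control, and 0.66 without control replicate 3, the lowest. Because the RNA is from bulk cultures, more cells with UPP1 transcripts and more transcripts per cell cannot be told apart.

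TYMP (chromosome 22, 50525752 to 50530056, minus strand), which splits thymidine and deoxyuridine, had 17.1, 20.9 and 15.8 FPKM in the control and 14.7, 12.6 and 13.2 FPKM in the TAX libraries. Every TAX value lay below every control value, and the group means differed by -24.6%, with 17.9 ± 2.68 and 13.5 ± 1.10 FPKM (SD, n = 3 each). On the log2 scale the difference was -0.38 (standard error 0.11). TYMP shares 10.5% of its exonic bases with ODF3B and 10.2% with SCO2, both on the same strand, and how reads in the shared bases were assigned is not known. ODF3B fell from 4.51, 4.82 and 3.77 FPKM to 2.52, 2.66 and 2.46 FPKM (log2 fold change -0.59, adjusted p = 0.0275 from limma). SCO2, a mitochondrial copper chaperone, had 2.63, 2.78 and 1.88 FPKM and 3.77, 3.37 and 3.29 FPKM, the opposite direction to TYMP (log2 fold change 0.39, adjusted p = 0.234 from limma). Both neighbours were looked up for their overlap with TYMP, whose values were known, so their p-values are a description. They are given for the main fit only. The part of these neighbours in the TYMP values was not tested.

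CDA (chromosome 1, 20588948 to 20618908, plus strand), the cytidine deaminase, had 52.7, 56.6 and 42.8 FPKM in the control and 43.0, 43.7 and 41.7 FPKM in the TAX libraries. The groups overlapped, since control replicate 3 lay within the range of the TAX libraries. The log2 fold change of CDA was -0.23 (standard error 0.10), and it was -0.35 without control replicate 3 and -0.15 without control replicate 2. The TAX libraries lay close together, with an SD of 1.01 FPKM against 7.14 FPKM in the control libraries.

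The kinases that keep uridine and cytidine in the nucleotide pool differed less. UCK2 (chromosome 1, 165827531 to 165911618, plus strand) had 23.1, 19.7 and 19.5 FPKM in the control and 22.2, 22.4 and 21.9 FPKM in the TAX libraries. All 3 TAX values lay below control replicate 1 and above the other controls, and the log2 fold change was 0.093 (standard error 0.086). It was 0.17 without control replicate 1, 0.058 without control replicate 2, 0.052 without control replicate 3 and 0.023 after quantile normalization. UCK1 (chromosome 9, 131523801 to 131531268, minus strand) had 14.8, 14.9 and 12.8 FPKM and 14.6, 15.4 and 13.6 FPKM, with overlapping groups and a log2 fold change of 0.033 (standard error 0.088). The sign of the UCK1 value turned after quantile normalization, at -0.028, after median centring, which gives every library an equal median, at -0.024, and without control replicate 3 or TAX replicate 2, at -0.035 and -0.0054. It was 0.065 to 0.076 without control replicate 1, control replicate 2 or TAX replicate 3.

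TK1 (chromosome 17, 78174075 to 78187233, minus strand), the cytosolic thymidine kinase whose expression peaks in S phase, had 67.8, 68.3 and 63.2 FPKM in the control and 71.7, 76.2 and 73.8 FPKM in the TAX libraries. The groups did not overlap, and the means differed by 11.3%. The log2 fold change of TK1 was 0.15 (standard error 0.078), 0.12 without control replicate 3, 0.081 after quantile normalization and 0.094 after median centring.

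The enzymes of de novo synthesis were at most 13.1% apart between the group means. CAD (chromosome 2, 27217390 to 27243943, plus strand), which carries out the opening steps of the route, had 15.7, 14.9 and 12.1 FPKM in the control and 16.0, 15.8 and 16.5 FPKM in the TAX libraries. The groups of CAD did not overlap, but control replicate 1 and TAX replicate 2 were 0.103 FPKM apart. Its log2 fold change of 0.17 (standard error 0.099) was 0.068 without control replicate 3 and 0.11 after quantile normalization.

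CTPS1 (chromosome 1, 40979335 to 41012565, plus strand), the CTP synthase, had 26.1, 24.3 and 21.7 FPKM and 26.3, 24.2 and 28.5 FPKM, with overlapping groups and a log2 fold change of 0.13 (standard error 0.094). That of CTPS1 was 0.059 without control replicate 3, 0.071 without TAX replicate 3 and 0.059 after quantile normalization. DHODH (chromosome 16, 72008588 to 72027664, plus strand), the dehydrogenase of the inner mitochondrial membrane, had 2.74, 2.59 and 2.46 FPKM and 2.73, 2.64 and 2.97 FPKM. UMPS (chromosome 3, 124730366 to 124749273, plus strand), which makes UMP in the closing steps, had 6.36, 5.66 and 5.80 FPKM and 6.01, 6.58 and 6.16 FPKM. The groups overlapped for DHODH and UMPS, with log2 fold changes of 0.071 and 0.063 (standard error 0.080 each). The DHODH value was 0.044 without control replicate 3 and 0.036 without TAX replicate 3, and 0.044 after quantile normalization and 0.014 after median centring. The UMPS value was 0.11 without control replicate 1, 0.034 without control replicate 2 and 0.031 without TAX replicate 2, and 0.013 and 0.0057 after the same scalings.

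**Figure D2:**
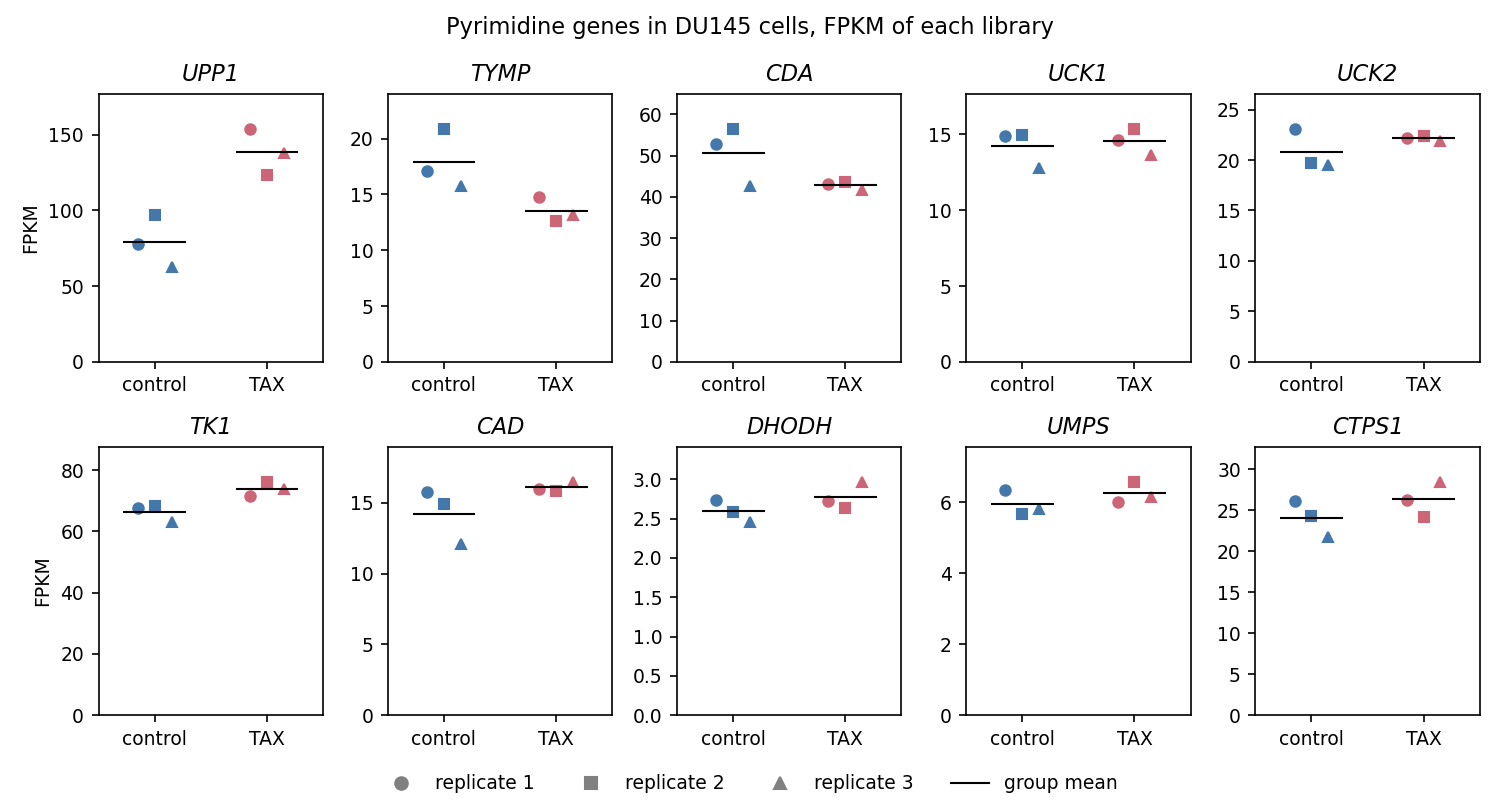
FPKM of each gene in the 3 control and 3 TAX libraries, with axes that start at 0, 1 symbol per replicate and a line at the group mean. The TAX points of UPP1, TK1 and CAD all lie above and those of TYMP all below the control points, and the other 6 genes overlap between the groups.

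All 10 genes passed the filter on low values, a minimum of 1 FPKM in 3 or more libraries. In the limma comparison over all 12359 tested genes, 1 of the 10 genes, UPP1, had an adjusted p under 0.05, where 0.477% of all tested genes did (0.316% higher and 0.162% lower after TAX treatment). Since UPP1 was picked for this difference, nothing is read from that count, and UPP1 kept it under 5 of 13 alternatives, among them that without control replicate 2 but none of the other 5 that left out a library. Of all tested genes 39 were higher and 20 lower, and 47 and 48 after quantile normalization or 46 and 50 after median centring. The groups did not overlap in 3 higher and 1 lower of the 10 genes, beside 14.6% and 3.34% of all tested genes. The median log2 fold change of the 10 genes was 0.082, beside 0.054 over all tested genes, and 8 of the 10 were above 0, as were 69.1% of all tested genes. With a library left out in turn, the median of the 10 genes lay between 0.051 and 0.14 and that of all tested genes between 0.0055 and 0.078, both lowest without control replicate 3.

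Within each library the balance between genes can be read as a ratio of FPKM, which does not depend on the scaling of the library. These ratios were chosen after the values were seen and are a description. The ratio of UPP1 to TYMP was 4.58, 4.63 and 3.99 without TAX and 10.5, 9.82 and 10.4 with TAX. UPP1 over CDA was 1.48, 1.71 and 1.47 in the control and 3.58, 2.83 and 3.31 in the TAX libraries. That of UPP1 to the sum of the uridine kinases UCK1 and UCK2 was 2.06, 2.80 and 1.94 in the control and 4.18, 3.28 and 3.88 in the TAX libraries. The groups did not overlap in any of these 3 ratios. All 3 have UPP1 as numerator, which was chosen for its higher values with TAX, so they are not separate results. The ratio of the de novo genes CTPS1 and CAD, which leaves out UPP1, was 1.66, 1.63 and 1.80 in the control libraries. It was 1.65, 1.53 and 1.73 in the TAX libraries, and the groups overlapped.

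**Figure D3:**
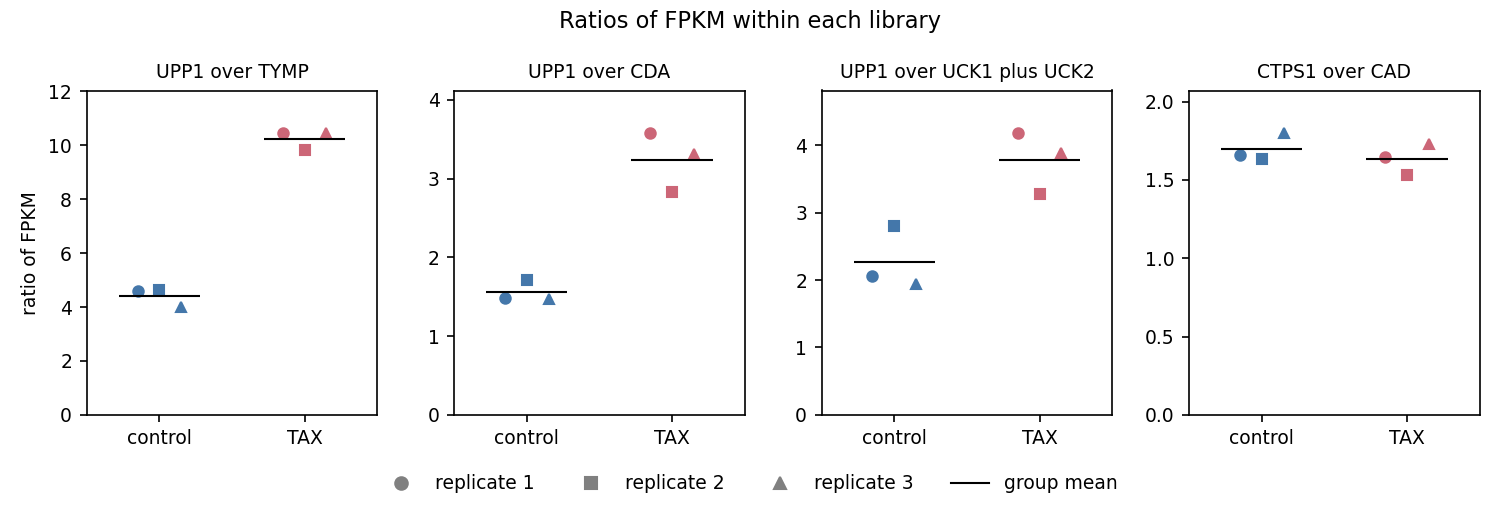
Ratios of FPKM within each library for 4 pairs, with axes that start at 0, 1 symbol per replicate and a line at the group mean. UPP1 over TYMP is 3.99 to 4.63 in the control and 9.82 to 10.5 in the TAX libraries, while CTPS1 over CAD overlaps between the groups.

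The rest of pyrimidine metabolism was followed in 41 other genes, listed by function with earlier results of these data known. This also holds for the ribose phosphate and purine genes below, so counts and p-values of these lists are a description. All 41 were in the files, and 31 had enough FPKM to be tested. Of these 31 genes, 1 rose and 0 fell at an adjusted p under 0.05 (limma), beside 0.316% higher and 0.162% lower among all tested genes. An unadjusted p under 0.05 was found for 5, all higher, beside 7.73% higher and 2.41% lower among all tested genes. The groups did not overlap in 8 of the 31 genes, all higher, beside 14.6% higher and 3.34% lower among all tested genes. The median log2 fold change was 0.058, beside 0.054 over all tested genes, and after quantile normalization these were 0.0013 and 0.0037.

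The gene that rose was NT5E (chromosome 6, 85449584 to 85495791, plus strand), which encodes CD73. This cell surface nucleotidase removes the phosphate of nucleoside monophosphates outside the cell, those of purines included. NT5E was counted in this list only and not among the purine genes below. NT5E had 76.5, 68.2 and 66.7 FPKM in the control and 99.7, 99.3 and 103 FPKM in the TAX libraries. The means were 70.5 ± 5.28 and 101 ± 1.85 FPKM (SD, n = 3 each), without overlap. NT5E rose by 0.51 on the log2 scale (standard error 0.084, adjusted p = 0.0301 from limma). The adjusted p was under 0.05 in 6 of 13 alternatives and ranged from 0.0275 to 0.147. It was above 0.05 with each TAX library left out in turn, at 0.120, 0.124 and 0.147, and without control replicate 2 or 3, at 0.0827 and 0.0556.

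The other nucleotidases and the enzymes of base breakdown differed less or were scarcely expressed. NT5C, a cytosolic nucleotidase for deoxynucleotides, had 24.2 ± 0.739 and 28.3 ± 1.53 FPKM (SD, n = 3 each), and the adjusted p by limma was 0.393. NT5C2, NT5C3A and NT5C3B had log2 fold changes between -0.026 and 0.056. DPYD, which takes up the uracil that UPP1 releases, was between 0.524 and 0.951 FPKM in the 6 libraries and was not tested. DPYS and UPB1, the next enzymes of uracil breakdown, were between 0 and 0.0738 FPKM. UPP2, the paralog of UPP1, was listed at 0 in 5 libraries and at 0.00976 FPKM in control replicate 2.

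Among the kinases that carry nucleotides to the triphosphate, NME1 averaged 92.8 ± 10.2 FPKM without and 116 ± 12.0 FPKM with TAX, and NME3 had 9.32 ± 2.05 and 12.3 ± 1.03 FPKM (SD, n = 3 each). Both were without overlap and higher after TAX treatment, but their adjusted p was 0.373 and 0.383 from limma. NME2 was the most abundant of the 41 genes, at 321 ± 27.7 and 347 ± 16.6 FPKM (SD, n = 3 each), and it overlaps a read-through transcript with NME1, so the split of their reads is uncertain. CMPK1, which phosphorylates UMP and CMP, was at 39.8 to 41.5 FPKM in the control and 41.6 to 43.5 FPKM in the TAX libraries.

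All 9 genes of deoxynucleotide supply were tested and none passed the adjusted threshold, where 0.316% of all tested genes were higher and 0.162% lower. Only 1 of the 9 had an unadjusted p under 0.05 (limma), beside 7.73% higher and 2.41% lower among all tested genes. That was DCTPP1, which degrades dCTP, with 21.8 ± 1.49 and 27.0 ± 2.89 FPKM (SD, n = 3 each), and the adjusted p by limma was 0.338. The S-phase enzymes TYMS, thymidylate synthase, and RRM2, the small subunit of ribonucleotide reductase, had log2 fold changes of 0.033 and 0.0044 (standard errors 0.092 and 0.097). The nucleoside transporter SLC29A1 had 21.0 ± 2.13 and 23.7 ± 0.946 FPKM (SD, n = 3 each), and the concentrative transporters SLC28A1, SLC28A2 and SLC28A3 were between 0 and 0.0768 FPKM.

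**Figure D4:**
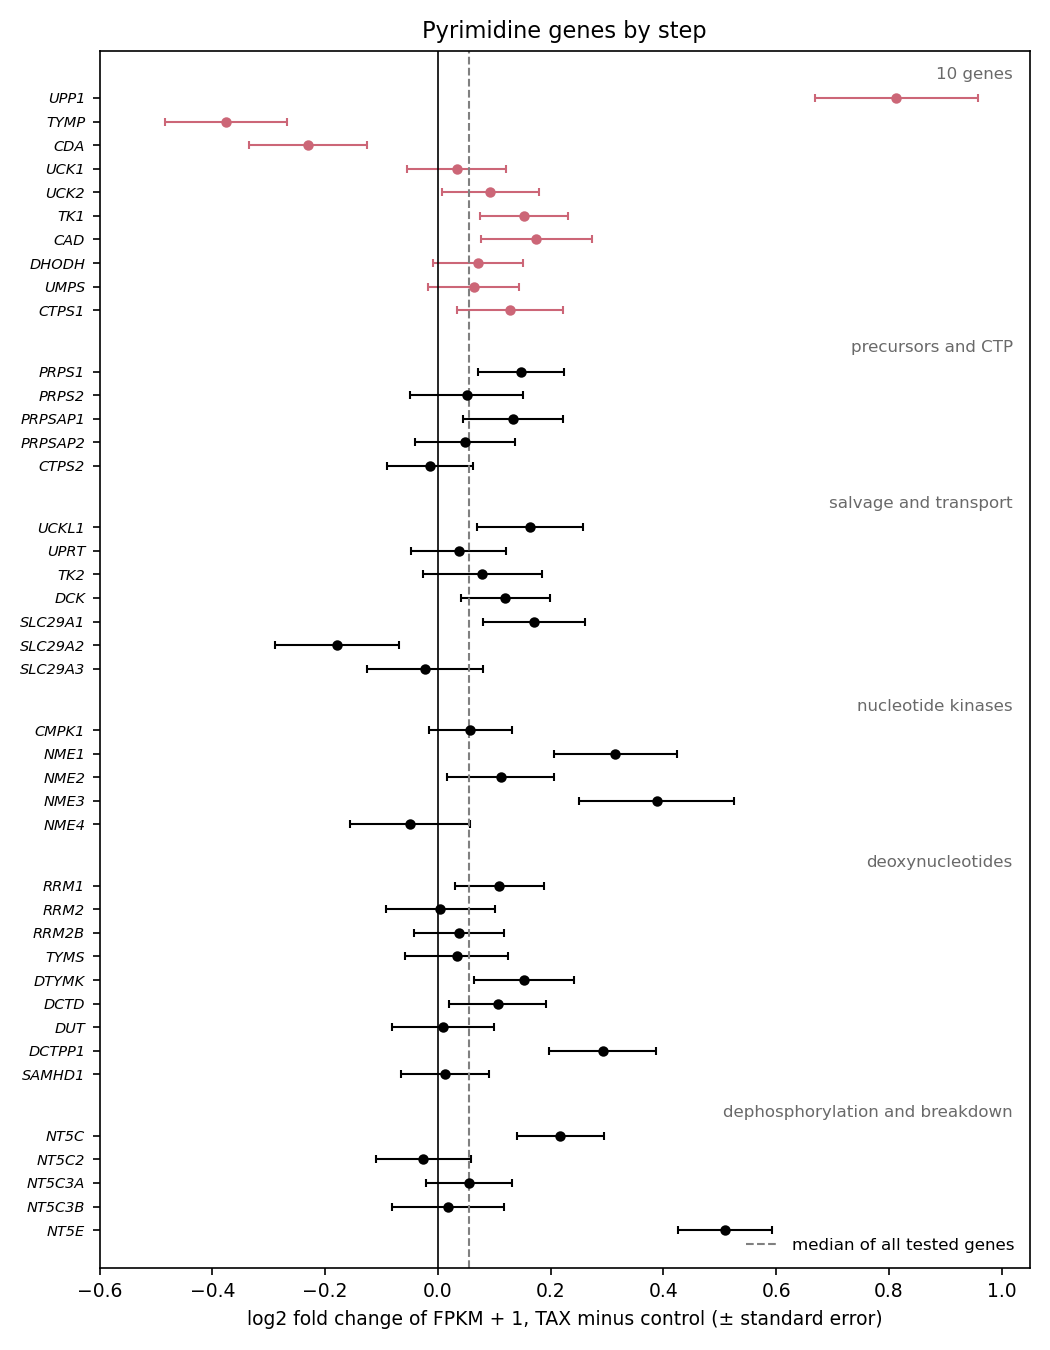
Log2 fold change of FPKM + 1, TAX minus control, with its standard error, for the 10 genes (red) and the 31 tested other genes of pyrimidine metabolism (black), grouped by step. UPP1 at 0.81 and NT5E at 0.51 lie farthest to the right and TYMP at -0.38 farthest to the left, while the dashed line marks the median of all tested genes at 0.054.

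The ribose phosphate that UPP1 releases can enter the pentose phosphate pathway. Of 6 genes listed for ribose phosphate use, 0 passed the adjusted threshold (limma), beside 0.316% higher and 0.162% lower among all tested genes. The groups did not overlap in 2 of the 6, all higher, beside 14.6% higher and 3.34% lower among all tested genes. Only 1 of the 6 had an unadjusted p under 0.05 (limma), beside 7.73% higher and 2.41% lower among all tested genes. That was RPIA, the ribose phosphate isomerase, with 5.97 ± 0.585 and 7.32 ± 0.151 FPKM (SD, n = 3 each; adjusted p = 0.344). TKT, transketolase, was the most abundant, with 156 ± 11.6 and 161 ± 19.7 FPKM (SD, n = 3 each). Their median log2 fold change was 0.12 beside 0.054 over all tested genes. Without control replicate 3 these medians were 0.027 and 0.0055, and without control replicate 2 they were 0.19 and 0.078.

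The parallel purine route was examined in 18 genes of synthesis and salvage, all of which were tested. Of these genes 0 passed the adjusted threshold (limma), beside 0.316% higher and 0.162% lower among all tested genes. An unadjusted p under 0.05 was found for 4, all higher, beside 7.73% higher and 2.41% lower among all tested genes. IMPDH1, a rate-limiting enzyme of GTP synthesis, had 29.6 ± 2.41 and 36.4 ± 1.29 FPKM (SD, n = 3 each; adjusted p = 0.260). MTAP, HPRT1 and ATIC were the others, at 0.20, 0.19 and 0.20 on the log2 scale, and their adjusted p lay between 0.419 and 0.475. The groups did not overlap in 8 of the 18 genes, all higher, beside 14.6% higher and 3.34% lower among all tested genes. The log2 fold change was above 0 in all 18 genes, as in 69.1% of all tested genes, with a median of 0.16 beside 0.054 over all tested genes. These medians were 0.098 and -0.0034 after median centring, 0.087 and 0.0037 after quantile normalization, and 0.12 and 0.0055 without control replicate 3. ADK was the most abundant purine gene in control cells, with 86.7 ± 9.66 FPKM, and ADSS1 the least, with 4.28 ± 0.249 FPKM (SD, n = 3 each).

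The genes whose log2(FPKM + 1) followed UPP1 most closely over the 6 libraries were TSR1, LAMB3, NUP155, CEP83 and DKK1, with Pearson's r from 0.992 to 0.998 and Spearman's rho from 0.943 to 1. These values describe 6 points in a pair of groups that do not overlap in UPP1, and 660 of 11638 named genes had an r over 0.9. LAMB3, a laminin chain, averaged 129 FPKM without and 198 FPKM with TAX, and NUP155, a nucleoporin, 34.2 and 36.1 FPKM. Among the 10 pyrimidine genes, r with UPP1 was highest for TK1 at 0.866 and CAD at 0.792, and it was -0.357 for CDA and -0.492 for TYMP.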

How the data were processed

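Libraries were made from total RNA of DU145 cells, 3 for the control and 3 for the TAX group, with an mRNA library kit per the labels, and whether it kept strand is not stated. The submitters' processing notes name HISAT2 2.2.0, StringTie 2.1.2 and GRCh38. The authors deposited 1 table per library without pooling, whose decimals are taken as FPKM, since the unit is not named in the tables; annotation, parameters and filters are not given in the sources used here. Depth is unknown, and no counting interval was made. The deposited FPKM values were transformed to log2(FPKM + 1), kept for 12359 genes at a minimum of 1 FPKM in 3 or more of the 6 libraries and compared with limma 3.58.1 in R 4.3.3 (eBayes with trend, no covariate, two-sided), with Benjamini-Hochberg adjustment over these genes. A threshold of 0.05 was used. On this scale the change of low genes is understated. The 10 genes and all gene lists were chosen with earlier results of these data known. Named genes are the 10 genes, in each list the genes with an adjusted p under 0.05 and up to 4 with the smallest unadjusted p under 0.05, the most and least abundant of a list, and the 5 closest to UPP1 by Pearson's r; any further gene was named with its values in view. Some markers of the luminal prostate list are not reported here. Positions came from GENCODE 29 by gene name, and upstream sequences from RefSeq for all 10 genes. The 50 bases after the start lay in a GENCODE transcript of the gene for 12 of 15 entries, those printed included. In data simulated for the 12359 genes, 75% of 200 genes with a log2 change of 0.585 and 97% of 200 with one of 1 were recovered, with 5 and 12 false calls. The simulated noise was independent between genes, without shifts shared by a whole library, so these shares may not hold for the real libraries. Alternatives were a pseudocount of 0.1, a filter at 0.1 FPKM or none, quantile normalization, median centring, no trend, a replicate block and leaving out each library in turn.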

Additional observations from a re-analysis of the deposited data

How the results depend on the processing

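Without the filter on low values, 0 genes were higher and 1 lower at an adjusted p under 0.05 over 20280 genes (1854 at an unadjusted p under 0.05), and with a filter at 0.1 FPKM 25 and 12. After quantile normalization 48 and after median centring 50 genes were lower. With each library left out in turn, 9 to 28 genes were higher and 8 to 15 lower. The count of 1 among the 10 pyrimidine genes was 0 without the filter, with the filter at 0.1 FPKM and in the fit with the replicate block, and 0 to 1 with a library left out, and nothing is read from it, since UPP1 was chosen for this difference. That of the 41 other genes, 1 (NT5E), was 0 without the filter and in the fit with the replicate block, and 0 to 1 with a library left out, with 1 to 6 genes at an unadjusted p under 0.05. The median log2 fold change of the purine genes was 0.087 and that of the ribose phosphate genes 0.046 after quantile normalization, and the latter was 0.027 to 0.19 with a library left out. With the replicate number as a block, 13 genes were higher and 13 lower in all. Libraries with the same number did not deviate together, with r of deviations from the group means of -0.12, -0.33 and -0.17, so the numbers were not taken as pairs. The cause of these shifts was not tested. The unknown depth limits what can be said of genes near 0, such as UPP2 and DPYS.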
